A study of Mus musculus with 8 samples.

Results

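The genes of antigen presentation by MHC class II were followed in tissue of the upper shin bone surface, the tibial plateau, from mice lacking Anp32a and from wild types. Members were every probe set whose gene symbol in the deposited table was H2-Aa, H2-Ab1, H2-Eb1, H2-DMa, H2-DMb1, Cd74 or Ciita. This rule found 13 probe sets of 6 genes, out of 45037 probe sets and 20667 gene symbols in all. No probe set carried the symbol H2-DMb1, so it was not analysed here.

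Articular cartilage and the bone beneath it were dissected together from the tibial plateau right after death, and RNA was measured on 8 Affymetrix arrays, 1 per mouse. The knockout group was 4 mice lacking ANP32A, aged 8 weeks, with no strain given in the sources used here. The wild-type group was 4 C57BL/6 mice, also aged 8 weeks. The sources used here do not say which part of Anp32a was deleted, which sex the mice were, or whether the groups were littermates. The label calls the tissue cartilage, and 11 of 11 chondrocyte markers were present on all 8 arrays, as were 12 of 12 skeletal muscle markers and 12 of 12 erythroid markers, each in its brightest probe set. Muscle and red cell RNA were thus measured alongside cartilage RNA. In such a bulk sample, fewer cells of a type and less RNA per cell cannot be told apart.

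MHC class II molecules show peptides from taken-up proteins to CD4+ T cells. An alpha and a beta chain pair in the endoplasmic reticulum around the invariant chain, which Cd74 encodes, and travel to acidic compartments. There cathepsins cut the invariant chain, and the DM heterodimer exchanges the remaining fragment for peptide. B cells, dendritic cells and macrophages carry these genes, and in bone they are found mainly in the marrow. Ciita encodes the coactivator that switches the whole set on. It does not bind DNA itself but sits on proteins bound at the X box (the RFX complex and CREB) and the Y box (NF-Y) of class II promoters.

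The promoters of H2-Aa and H2-Eb1 are shown with those of H2-DMb1 and H2-Ob as examples. By exact match, the first pair hold both patterns searched, and H2-Ob holds the X box pattern with the shorter Y box pattern. In H2-DMb1, a member, the shorter Y box pattern is the only exact match. Near matches are not marked, such as ctagtaac in H2-DMb1, which is close to the X box pattern. Sequences are the 150 bases before the RefSeq start, read 5′ to 3′ on the gene's strand in GRCm38.p6, and position -1 is the last base before the start. Capitals mark CTNGCAAC, taken here as an X box pattern, and GATTGG or CTGATTGG, taken as Y box patterns, on either strand.
H2-Aa (chr17:34287824-34287973, minus strand): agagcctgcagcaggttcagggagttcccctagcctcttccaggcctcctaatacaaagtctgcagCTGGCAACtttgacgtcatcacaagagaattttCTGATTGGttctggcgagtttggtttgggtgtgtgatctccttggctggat
H2-Eb1 (chr17:34305717-34305866, plus strand): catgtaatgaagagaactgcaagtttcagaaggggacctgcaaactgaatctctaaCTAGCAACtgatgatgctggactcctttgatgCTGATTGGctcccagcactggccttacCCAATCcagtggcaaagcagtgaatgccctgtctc
H2-DMb1 (chr17:34153041-34153190, plus strand): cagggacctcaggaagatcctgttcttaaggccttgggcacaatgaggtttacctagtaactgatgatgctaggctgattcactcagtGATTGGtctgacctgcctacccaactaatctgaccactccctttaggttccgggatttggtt
H2-Ob (chr17:34238755-34238904, plus strand): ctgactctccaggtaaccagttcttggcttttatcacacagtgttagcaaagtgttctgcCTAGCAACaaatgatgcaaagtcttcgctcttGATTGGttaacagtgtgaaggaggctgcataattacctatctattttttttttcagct

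In H2-Aa the X box pattern began at position -84 and CTGATTGG at -51, 33 bases further on. In H2-Eb1 they began at -94 and -62, 32 bases apart. H2-Ob had the X box pattern at -90 and the shorter GATTGG at -58. Among all 32851 RefSeq promoter windows of 300 bases (250 before to 50 after the start), CTNGCAAC was found in 3.42%, GATTGG in 16.1% and CTGATTGG, which contains GATTGG, in 4.1%. The X box pattern followed within 60 bases on the same strand by CTGATTGG was found in 9 windows (0.027%), including those of H2-Aa and H2-Eb1. The letters were chosen after these windows had been read, so these shares are no independent evidence. H2-Oa held CTGATTGG at -46 with no exact match to the X box pattern. H2-Eb2 held exact matches to both in the reverse order, CTGATTGG at -103 and the X box pattern at -12. Both windows also held CCAGCAAC, 1 letter from the X box pattern, before CTGATTGG. Only exact matches were searched, so the lack of a match does not mean that a box is absent. H2-DMb1, H2-DMb2 and 1 of the H2-DMa windows held GATTGG as the only exact match, at -62, -91 and -199. The gene-by-gene search covered 4 of the 7 members, H2-Aa, H2-Eb1, H2-DMa and H2-DMb1. No RefSeq window was available for H2-Ab1 or Ciita, and Cd74 was left out of this search.

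Values below are log2 RMA values, and differences are knockout minus wild type on the log2 scale. Adjusted p-values come from limma fitted to all probe sets with Benjamini-Hochberg adjustment, with a threshold of 0.05. On each array, 57.6% to 60.1% of probe sets were called present. The targeted gene was checked first: 1 of 3 Anp32a probe sets read 4.98, 4.05, 4.33 and 5.04 in knockout mice and 9.95, 9.91, 9.76 and 9.91 in wild-type mice (difference -5.28, limma adjusted p = 5.9e-06). The other 2 Anp32a probe sets gave -0.45 and -0.51, short of the threshold (limma adjusted p = 0.0641 and 0.0555). The sources do not place these probe sets relative to the deletion.

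Most class II probe sets were called present in both genotypes, and none passed the test. All 13 member probe sets read higher in knockout on average, by 0.03 to 0.28 on the log2 scale (1.02-fold to 1.21-fold), while 0 of 13 passed limma adjusted over all probe sets (adjusted p = 0.295 to 0.883). With 1 probe set per gene 0 of the 6 genes passed, against 0.0532% of all genes. None of the 13 had an unadjusted p under 0.05 either. Among all 45037 probe sets 24 passed (0.0533%), 18.3% had an unadjusted p under 0.05 (9.53% higher and 8.74% lower in knockout), and 54% had a difference above 0. The median difference was 0.18 over the member probe sets, against 0.01 over all probe sets. Probe sets of one gene read the same transcript and class II genes share samples, so 13 positive differences are not 13 separate observations. The 95% intervals all held 0 and together ran from 0.917-fold to 1.48-fold, so that modest increases remain within the error. Of the 13 probe sets 11 were present on all 8 arrays.

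Knockout 3 stood apart from the other knockout arrays. It had the highest value of all 8 for 12 of 13 member probe sets, where 18.6% of all probe sets peaked on it. Relative to the wild-type mean, the median over the member probe sets was 0.57 on knockout 3, 0.12 on knockout 2, 0.09 on knockout 1 and 0.04 on knockout 4. Without knockout 3 the median difference of the member probe sets was 0.07, and without knockout 4 it was 0.25. Leaving out knockout 4 brought 7.95% of all probe sets past the threshold (4.01% higher in knockout), and still 0 of 13 member probe sets. In no member probe set were the groups fully apart, compared with 9.42% of all probe sets. The SD was larger in knockout than in wild type for 13 of 13 member probe sets, against 62% of all probe sets.

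**Figure D1:**
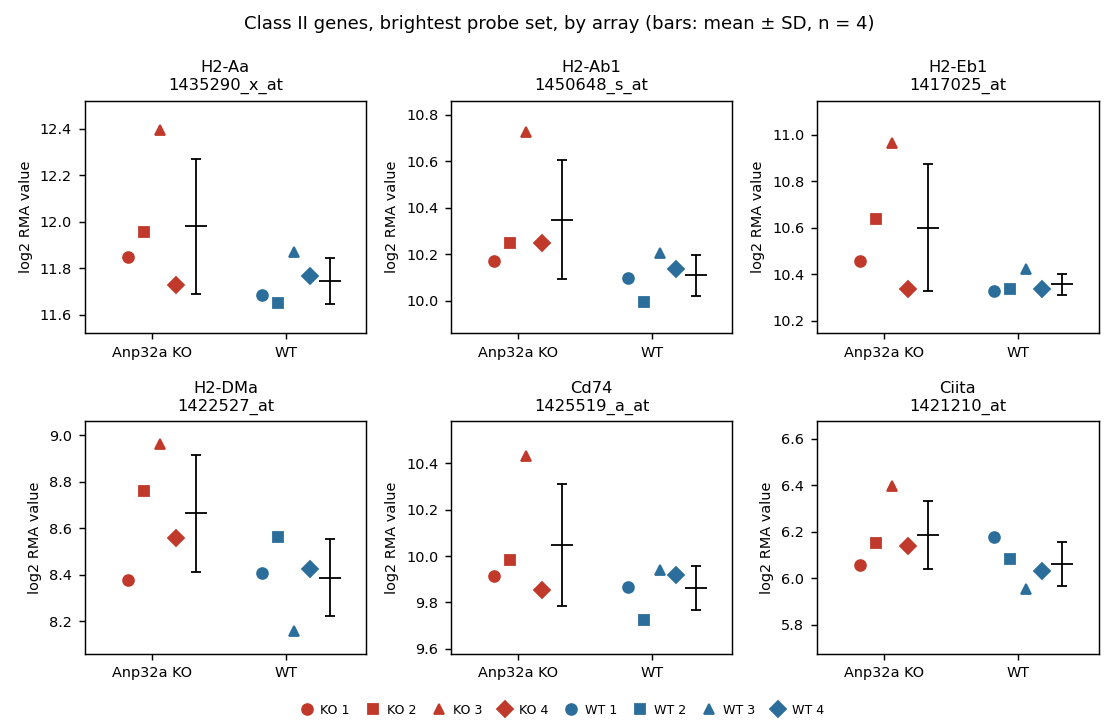
Log2 RMA values (vertical axis, each panel spanning 1 log2 unit) of the brightest probe set of each class II gene, with 4 Anp32a knockout arrays in red and 4 wild-type arrays in blue and bars for mean ± SD. Knockout 3 (red triangle) is the highest point in every panel, and the other knockout arrays lie close to or among the wild types.

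The alpha chain gene H2-Aa encodes the alpha subunit of I-A, the classical class II molecule that C57BL/6 mice make. Its brightest probe set, 1435290_x_at, read 11.85, 11.96, 12.39 and 11.73 in knockout mice, against 11.69, 11.65, 11.87 and 11.77 in wild-type mice. Knockout 2 and knockout 3 lay above every wild type, and knockout 1 and knockout 4 lay within the wild-type range. The means were 11.98 ± 0.29 in knockout and 11.74 ± 0.10 in wild type (SD, n = 4 each), and the difference of 0.24 did not pass (95% interval -0.06 to 0.53, limma adjusted p = 0.373).

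The other 3 H2-Aa probe sets gave differences of 0.23, 0.17 and 0.28 and none passed (limma adjusted p = 0.418, 0.466 and 0.295). The last of these, 1452431_s_at, read 9.74, 9.93, 10.34 and 9.69 in knockout mice and 9.69, 9.61, 9.72 and 9.59 in wild-type mice. There 3 knockout arrays exceeded every wild type, and knockout 4 did not. By Affymetrix naming, suffixes x and s mark probes that can also match other transcripts. Cross-reaction among class II genes thus cannot be told apart from H2-Aa signal in these 4 probe sets. The same limit holds for H2-Ab1 probe sets 1450648_s_at and 1425477_x_at and H2-DMa probe set 1459872_x_at.

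The beta chain gene H2-Ab1 encodes the partner of H2-Aa in I-A. Its brightest probe set, 1450648_s_at, read 10.17, 10.25, 10.73 and 10.25 in knockout mice, against 10.10, 9.996, 10.21 and 10.14 in wild-type mice. Knockout 1 lay within the wild-type range and the other 3 knockout arrays above it, knockout 2 and knockout 4 by little. The means were 10.35 ± 0.26 and 10.11 ± 0.09 in knockout and wild type (SD, n = 4 each; difference 0.24, 95% interval -0.02 to 0.50, limma adjusted p = 0.318). The remaining H2-Ab1 probe sets gave 0.18 and 0.13 (limma adjusted p = 0.42 and 0.597). The smaller difference, in 1451721_a_at, was -0.04 when knockout 2 and knockout 3 were both left out.

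H2-Eb1 encodes the beta chain of I-E, the other classical class II molecule. Its single probe set read 10.46, 10.64, 10.97 and 10.34 in knockout mice, against 10.33, 10.34, 10.42 and 10.34 in wild-type mice. The wild types lay close together, and 3 knockout arrays lay above them while knockout 4 lay among them. The difference was 0.24 (means 10.60 ± 0.27 and 10.36 ± 0.04 in knockout and wild type, SD, n = 4 each; 95% interval -0.03 to 0.51, limma adjusted p = 0.319). The partner of this chain, the E alpha chain, is not made in C57BL/6 mice, and the files name its gene as the pseudogene H2-Ea-ps. Of its 3 probe sets, 2 were absent on all 8 arrays and the other was present on knockout 1 alone. Their differences were -0.05, -0.04 and -0.04, so the E alpha transcript was not detected in either genotype apart from that single call.

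H2-DMa encodes the alpha chain of the DM heterodimer, which loads peptide. Its brighter probe set, 1422527_at, read 8.38, 8.76, 8.96 and 8.56 in knockout mice, against 8.41, 8.56, 8.16 and 8.42 in wild-type mice. Knockout 2 and knockout 3 lay above the wild types, and knockout 1 and knockout 4 among them. The difference was 0.28 (means 8.66 ± 0.25 and 8.39 ± 0.17 in knockout and wild type, SD, n = 4 each; 95% interval -0.01 to 0.57, limma adjusted p = 0.296). The dimmer H2-DMa probe set was absent on all 8 arrays.

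Cd74, the invariant chain, read 9.91, 9.98, 10.43 and 9.86 in knockout mice, against 9.87, 9.73, 9.94 and 9.92 in wild-type mice. Knockout 3 was again the highest array, knockout 2 lay just above the wild types, and knockout 1 and knockout 4 lay among them. The difference was 0.18 (means 10.05 ± 0.26 and 9.86 ± 0.10 in knockout and wild type, SD, n = 4 each; 95% interval -0.09 to 0.45, limma adjusted p = 0.469). Without knockout 3 it was 0.05, and without knockout 2 and knockout 3 it was 0.02.

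Ciita is the coactivator of the set. Its probe set 1421210_at read 6.06, 6.15, 6.395 and 6.14 in knockout mice, against 6.18, 6.08, 5.95 and 6.03 in wild-type mice, and was present on all 8 arrays. Only knockout 3 lay above the wild types (difference 0.12, 95% interval -0.07 to 0.32, limma adjusted p = 0.494). The other Ciita probe set, 1421211_a_at, gave 0.03 (limma adjusted p = 0.883), with knockout 2 the lowest of all arrays and a present call on 3 of 4 knockout and 4 of 4 wild-type arrays. It was the only member probe set that did not peak on knockout 3.

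**Figure D2:**
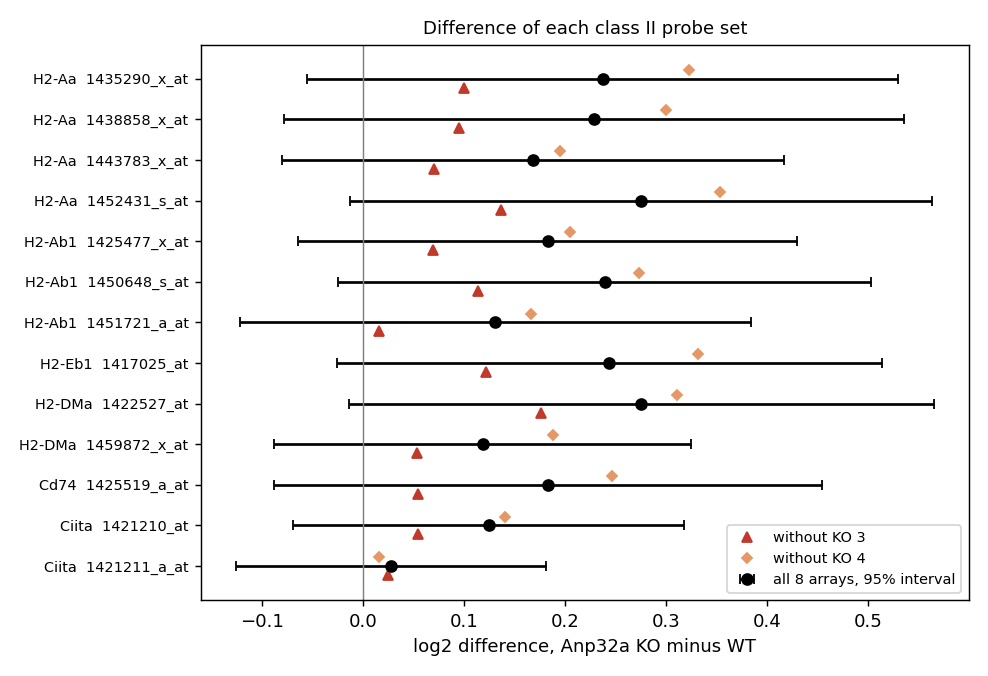
Log2 difference (horizontal axis, Anp32a knockout minus wild type) of the 13 class II probe sets, as points with 95% limma intervals over all 8 arrays, with the difference without knockout 3 (triangles) and without knockout 4 (diamonds). All points lie between 0.03 and 0.28, all intervals cross 0, and 13 of 13 differences stay above 0 but shrink without knockout 3.

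Averaged over the brightest probe set of the 6 genes, each centred on its mean over the arrays, the class II level was -0.06, 0.10, 0.45 and -0.05 on knockout 1 to 4, against -0.10, -0.14, -0.10 and -0.09 on wild type 1 to 4. In this average the genotypes did not overlap. Single probe sets did so in 9.42% of cases, and the share for averages of several genes was not computed. Among the gene lists described below, the averages of B cell, plasma cell, costimulation and bone genes did not overlap either, with knockout higher. Muscle markers did not overlap with knockout lower. For class II genes the gap between the lowest knockout and the highest wild type was small beside the distance of knockout 3 from the other knockout arrays.

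Of the partner genes of class II, none passed and a few had unadjusted p under 0.05. This list held peptide-loading chains and proteases of the endosome, with 13 of 17 names measured by 25 probe sets. Their median difference was -0.02, and 12 lay above 0 and 13 below. With the brightest probe set per gene the median was 0.17, and with the mean of the probe sets per gene 0.10. None passed in either direction, while 4 had an unadjusted p under 0.05, all higher in knockout. H2-DMb2, which encodes a beta chain of DM, is a close relative of H2-DMb1, and its probe sets may read both genes. Its probe set 1443686_at read 7.63, 7.75, 7.68 and 7.58 in knockout mice, against 7.40, 7.52, 7.02 and 7.24 in wild-type mice. Here every knockout array lay above every wild type and knockout 3 did not stand out, but the difference of 0.37 did not pass (95% interval 0.13 to 0.60, limma adjusted p = 0.15). A second H2-DMb2 probe set gave 0.41 (limma adjusted p = 0.178) and the third -0.12 (limma adjusted p = 0.552), so the probe sets did not point one way. Groups were fully apart in 2 of the 25 partner probe sets, against 9.42% of all probe sets. The other of these 2, of the protease gene Ctsd, was lower in knockout (-0.10, limma adjusted p = 0.405).

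Ifi30 encodes GILT, the lysosomal thiol reductase that opens disulfide bonds of antigens. It read 10.79, 11.17, 11.20 and 11.11 in knockout mice, against 10.78, 10.84, 10.67 and 10.64 in wild-type mice. Knockout 1 alone lay among the wild types (difference 0.34, 95% interval 0.12 to 0.56, limma adjusted p = 0.153). H2-Ob, the beta chain of the DO heterodimer that restrains DM mainly in B cells, read 7.35, 7.24, 7.99 and 6.89 in knockout mice, against 7.12, 6.79, 6.47 and 7.02 in wild-type mice. Its arrays overlapped and knockout 3 was again highest (difference 0.52, 95% interval 0.03 to 1.002, limma adjusted p = 0.245). H2-Oa, the DO alpha chain, was absent on all 8 arrays. The protease genes Ctss, which encodes the cathepsin that trims the invariant chain, and Lgmn, which encodes legumain, gave 0.18 and 0.17 (limma adjusted p = 0.455 and 0.572).

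**Figure D3:**
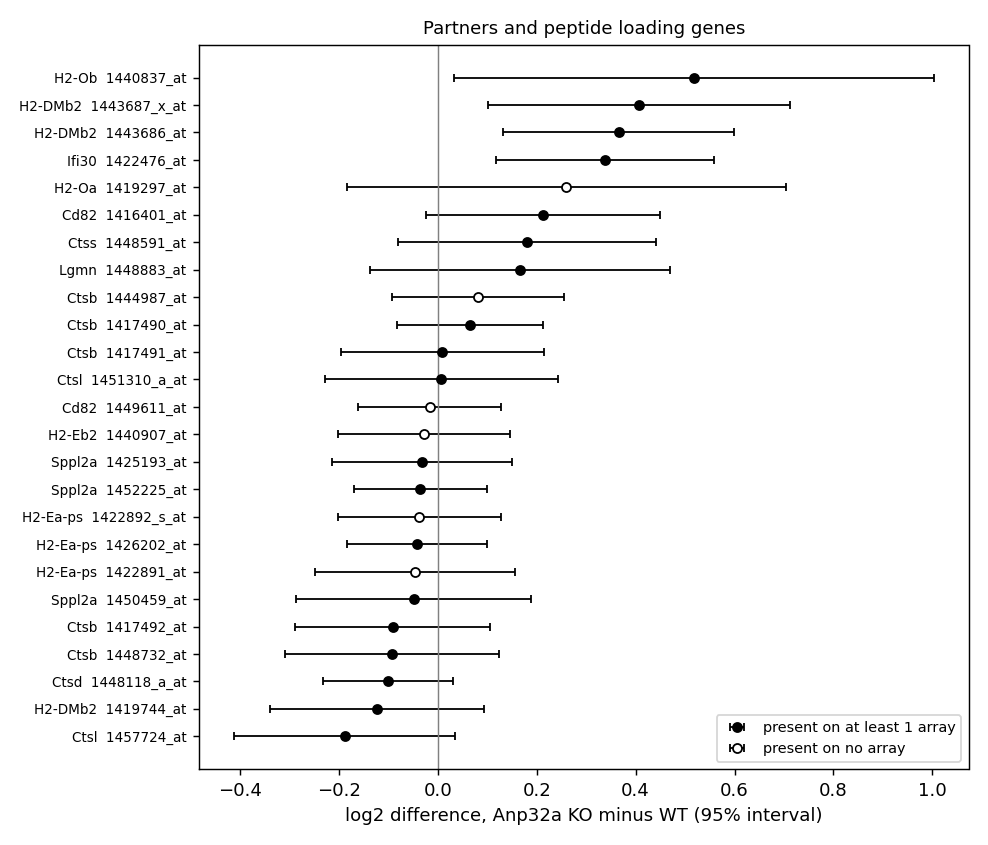
Log2 difference (horizontal axis, Anp32a knockout minus wild type) with 95% limma intervals for the 25 probe sets of class II partner and peptide-loading genes, filled where present on at least 1 array and open where present on none. H2-Ob, H2-DMb2 (2 of its 3 probe sets) and Ifi30 lie highest, at 0.34 to 0.52, and the 3 H2-Ea-ps probe sets lie just below 0.

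None of the regulators of class II genes passed. Of 17 names 15 were measured, by 38 probe sets with a median difference of 0.03. An unadjusted p under 0.05 was found for 7 higher and 3 lower in knockout. Prdm1, a repressor that silences Ciita in plasma cells, read 7.80, 8.16, 8.28 and 8.03 in knockout mice, against 7.82, 7.69, 7.68 and 7.65 in wild-type mice (difference 0.36, limma adjusted p = 0.149). Knockout 1 lay within the wild-type range and the other knockout arrays above it. Rfxap, a subunit of the X box factor RFX, gave -0.25 and -0.15 in its 2 probe sets (limma adjusted p = 0.23 and 0.274). Nfya, the DNA-binding subunit of the Y box factor NF-Y, gave 0.29 in its brightest probe set (limma adjusted p = 0.19), with knockout 4 among the wild types. Irf8, a factor of B cells and myeloid cells, gave 0.42 in 1 probe set and 0.43 in the other (limma adjusted p = 0.206 and 0.29).

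None of the genes of the neighbouring interferon gamma and class I pathways passed. The interferon gamma pathway, which induces Ciita in many cell types, had a median of 0.02 over 28 probe sets of 16 genes, with 0 called, 3 of unadjusted p under 0.05 higher and 2 lower. Ifng itself was absent on all 8 arrays. Irf1, an interferon-induced factor that acts at the Ciita promoter, read 10.08, 9.82, 10.19 and 9.82 in knockout mice, against 9.61, 9.71, 9.59 and 9.69 in wild-type mice, without overlap (difference 0.33, limma adjusted p = 0.15). The groups did not overlap in 5 of the 28 probe sets of this list, against 9.42% of all probe sets. Jak2, a kinase of the interferon gamma receptor, gave -0.23 in 1 probe set and -0.01 in the brighter one (limma adjusted p = 0.163 and 0.977). Cxcl10, an interferon-induced chemokine, gave 0.37 (limma adjusted p = 0.166). MHC class I presentation had a median of 0.06 over 29 probe sets of 15 genes with 0 called and 2 of unadjusted p under 0.05, both higher in knockout. Among them Nlrc5, the coactivator of class I genes, gave 0.32, the immunoproteasome gene Psmb9 gave 0.31, and H2-K1, a class I heavy chain, gave 0.21 in its brightest probe set (limma adjusted p = 0.247, 0.271 and 0.298), and -0.01 to 0.21 over its 4. The class I median was 0.03 without knockout 3 and 0.12 without knockout 1, and the interferon gamma median took both signs as single arrays were left out (-0.04 to 0.05).

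Marker genes of the cells that carry class II were measured on the same arrays. B cell markers (18 of 18 measured, 12 of them present on all arrays in their brightest probe set, Pax5 absent on all) averaged 0.19, 0.05, 0.72 and -0.07 on knockout 1 to 4, against -0.10, -0.34, -0.37 and -0.08 on wild type 1 to 4, as log2 values centred on the 8 arrays. Knockout 3 was thus the highest array for B cell markers as for class II genes. Over their 29 probe sets the median difference was 0.36 with 0 called, and 11 had an unadjusted p under 0.05, all higher in knockout. Without knockout 3 the B cell median was 0.20, and without knockout 4, where 4.01% of all probe sets were called higher, 5 of the 29 were. The adaptor gene Blnk gave 0.59, the complement receptor gene Cr2, present on 1 array, 0.30 and the early B cell factor gene Ebf1 0.02 in its brightest probe set (limma adjusted p = 0.159, 0.158 and 0.953), while the surrogate light chain gene Vpreb1 gave 0.996 and its partner Igll1 gave 0.76 in its brighter probe set and 0.05 in the other (limma adjusted p = 0.13, 0.139 and 0.827).

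Dendritic cell markers (13 of 14 measured, Ccr7 and Xcr1 absent on all arrays) averaged from -0.09 to 0.29 on knockout arrays, highest on knockout 3, against -0.08 to -0.02 on wild-type arrays. Their median difference was 0.06 over 25 probe sets, with 0 called and 2 of unadjusted p under 0.05, and it was 0.03 without knockout 3. These were the lectin gene Clec10a (0.38, limma adjusted p = 0.144) and the integrin gene Itgax, which encodes CD11c (0.37, limma adjusted p = 0.159), and in both every knockout array lay above every wild type. The groups were fully apart in 3 of the 25 probe sets. Over all probe sets 9.42% were so, and 9.53% had an unadjusted p under 0.05 and were higher in knockout. Cst3, which encodes cystatin C, gave -0.06 (limma adjusted p = 0.81).

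Macrophage and monocyte markers (15 of 16 measured) averaged -0.18 to 0.16 on knockout arrays, against -0.18 to 0.05 on wild-type arrays. The median difference over their 27 probe sets was -0.01, with 0 called, 6 of unadjusted p under 0.05 higher and 1 lower. Single arrays left out gave medians of both signs, and without knockout 4, 3 of the 27 were called higher, against 4.01% of all probe sets. Csf1r, the receptor of M-CSF, read 12.92, 13.09, 13.21 and 13.05 in knockout mice, against 12.69, 12.66, 12.71 and 12.74 in wild-type mice. The groups did not overlap (difference 0.37, limma adjusted p = 0.13), while C1qa, a complement gene of resident macrophages, gave -0.12 (limma adjusted p = 0.664). Over the list the groups did not overlap in 4 of the 27 probe sets, against 9.42% of all probe sets. Cx3cr1 and Cd68 gave 0.33 and 0.36 (limma adjusted p = 0.165 and 0.204).

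Plasma cell markers, of cells that have turned class II genes off, averaged -0.03 to 0.50 on knockout arrays, again highest on knockout 3, against -0.28 to -0.11 on wild-type arrays. Over 16 probe sets of 9 genes the median difference was 0.17 with 0 called, 4 of unadjusted p under 0.05 being higher in knockout. Without knockout 4, 2 of the 16 were called higher, against 4.01% of all probe sets. Jchain, the joining chain of secreted antibody, and Mzb1, a chaperone of antibody-making cells, gave 1.70 and 0.75 (limma adjusted p = 0.0902 and 0.135).

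Muscle and erythroid content also varied between arrays, and muscle markers averaged lower on every knockout array than on any wild type. Skeletal muscle markers averaged 0.05, -1.03, -0.57 and 0.22 on knockout 1 to 4, against 0.26 to 0.41 on wild-type arrays, and erythroid markers averaged 0.93, 0.44, 0.67 and -0.46 on knockout 1 to 4, against 0.30, -0.30, -1.18 and -0.39 on wild type 1 to 4. Knockout 3 was thus low in muscle and high in erythroid markers, though on neither did it hold the extreme value. The part of B cell, dendritic, plasma cell, muscle and erythroid content in the class II differences was not tested.

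**Figure D4:**
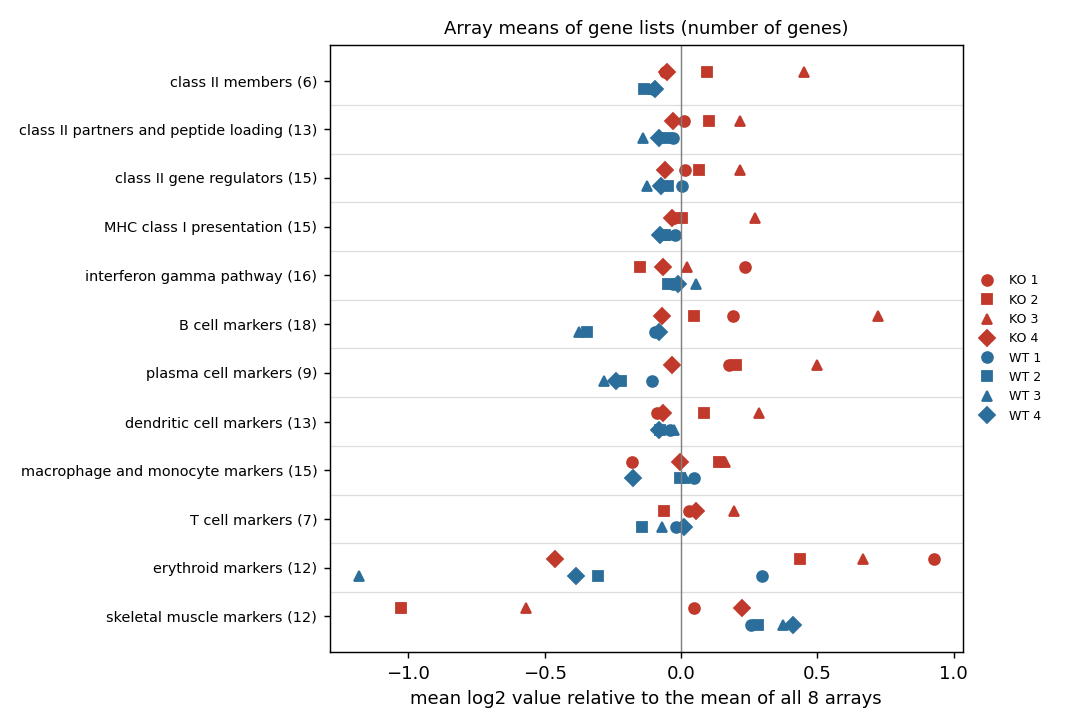
Mean log2 value of each gene list relative to the mean of all 8 arrays (horizontal axis), 1 point per array, Anp32a knockout in red above wild type in blue in each row, with the number of genes in parentheses. For class II genes knockout 3 lies at 0.45, and among the 12 lists drawn it is the highest array for all but the interferon gamma, erythroid and skeletal muscle lists. Costimulation, chondrocyte and bone lists are not drawn.

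The genes most like the class II average in their pattern over the 8 arrays were sought among 11064 other gene symbols present on every array. The 6 highest were Frg1 (Pearson r = 0.982), Fip1l1 (0.982), Sft2d1 (0.977), Ets1 (0.975), Pou2f1 (0.969) and Tep1 (0.967). All 6 peaked on knockout 3, and an r over 8 arrays rests in part on that array. Without knockout 3 the r over 7 arrays was 0.848 to 0.954, and without knockout 2 and knockout 3, the arrays farthest from the median, it was 0.094 for Sft2d1, 0.557 for Pou2f1 and 0.84 to 0.975 for the other 4. Tep1, a telomerase-associated protein gene, read 9.89, 9.99, 10.37 and 9.96 in knockout mice, against 9.78, 9.70, 9.76 and 9.82 in wild-type mice. These correlations describe 8 arrays that share tissue content and genotype, and no test was made of them.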

How the data were processed

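Expression was measured on 8 arrays, 4 per genotype, each array 1 numbered mouse per the file headers. The deposited log2 values were made by the authors with RMA, per the submitters' processing notes. The deposited p-values and log2 fold changes are the authors' own, and a limma refit differed from them by at most 0.0011 in log10 p. RMA forces all arrays to one distribution, so a shift shared by most genes would not show. The array design and the genome build were not named in the sources. Rows without an identifier (64) were dropped. No symbol was given for 6889 probe sets, and 62 held a date, and these were left unnamed.

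All 45037 probe sets were fitted with limma 3.58.1 in R 4.3.3 (lmFit, eBayes, genotype only, two-sided, Benjamini-Hochberg, threshold 0.05), with no filter. Precision is limited by having only 4 arrays per group. The p-values set each difference against the spread between these mice, with the variance moderated over all probe sets. Simulated data had these levels and spreads over 45037 probe sets. There the fit recovered 2 of 50 changes of 0.25 log2, 22 of 50 of 0.5, 44 of 50 of 1 and 49 of 50 of 2. The simulated noise was independent between probe sets and few of them were changed. On the real arrays 18.3% of probe sets had an unadjusted limma p under 0.05, so these recovery rates may not carry over. Probe set levels were ranked only to pick a gene's brightest probe set and the markers to name, and no level of one probe set was tested against another's.

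Members and gene lists were chosen with earlier results of these data known. Lists covered class II partners, class II regulators, interferon gamma, class I, costimulation, B cell, plasma cell, dendritic, macrophage, T cell, chondrocyte, bone, muscle and erythroid genes. Genes named were all members, up to 3 genes of smallest p per list, the most abundant markers, and the 6 most like the class II average; others were chosen after their values were seen. Alternatives were a replicate block, repeated quantile normalization, a presence filter, array weights, a trended robust prior, each array left out, and 1 value per gene. Replicate numbers were not taken as pairs, because no pairing is stated and same-numbered arrays did not all deviate together.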

Additional observations from a re-analysis of the deposited data

Results flagged for a closer look

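In 3 of 26 groups of 4 values (13 member probe sets in each genotype), a single array lay far from the other 3 by Dixon's test at the 95% level, where chance flags about 1 group in 20. Knockout 3 was high in H2-Aa probe set 1443783_x_at, at 8.48, against 8.11, 8.04 and 8.10 on the other knockout arrays. Knockout 3 was also high in H2-Ab1 probe set 1450648_s_at, at 10.73, against 10.17, 10.25 and 10.25 on the others. Wild type 3 was high in H2-Eb1, at 10.42, against 10.33, 10.34 and 10.34 on the other wild types.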

How the results depend on the processing

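No member probe set passed under any of the 16 alternatives in which it was fitted, and the median difference of the member probe sets stayed between 0.07 and 0.25. It was 0.07 without knockout 3 and also 0.07 without knockout 2 and knockout 3, a setting chosen with the data known, and 0.16 to 0.25 without any other single array. H2-Ab1 probe set 1451721_a_at turned to -0.0385 in that setting (limma adjusted p = 0.941), and the cause was not tested. The whole-table count was 24 probe sets, against 9 to 3579 with 1 array left out, 41 with array weights and 7 without knockout 2 and knockout 3. It was 11 of 20667 genes with the brightest probe set per gene and 12 with the mean. Without knockout 4, where 3579 probe sets (7.95%) passed, still 0 of 13 member probe sets did, while H2-DMb2 (0.51, limma adjusted p = 0.0439), Cd82 (0.32, limma adjusted p = 0.0437), Ctcf, Nfya, Irf1 and both Irf8 probe sets were called higher, beside 5 B cell, 2 plasma cell, 3 macrophage, 2 T cell, 3 bone and 7 erythroid probe sets, and 11 muscle probe sets were called lower. With the replicate number as a block 21 probe sets passed, 0 of them members, and the member median was 0.18. Deviations of same-numbered arrays correlated at 0.065, 0.511, -0.339 and 0.303. Present calls put most member probe sets above background, and changes of 0.25 log2 were seldom recovered on simulated data.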

Other observations

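Among markers of T cells, 1 of 7 genes measured was present on all 8 arrays in its brightest probe set. This list was not limited to CD4+ T cells, which read class II. The 18 probe sets of the list had a median difference of 0.01 (0.50 over those present on at least 4 arrays), 0 called and 6 of unadjusted p under 0.05, all higher in knockout. Without knockout 4, 2 of the 18 were called higher, against 4.01% of all probe sets, and single arrays left out gave medians of -0.03 to 0.08. Cd3e and Cd8a were absent on all 8 arrays in their brightest probe set. Il7r, the interleukin receptor gene also used by early B cells, read 8.71, 8.54, 9.30 and 8.47 in knockout mice, against 8.52, 7.81, 8.04 and 8.16 in wild-type mice (difference 0.62, limma adjusted p = 0.164). Costimulation and class II recognition genes had a median of 0.07 over 19 probe sets of 10 genes (0.17 over those present on at least 4 arrays), with 0 called and 1 of unadjusted p under 0.05. Cd4 and Lag3, whose proteins bind class II molecules, were absent on all 8 arrays in their brightest probe set. The costimulatory receptor gene Cd28 gave 0.51 and 0.36 in its 2 probe sets (limma adjusted p = 0.198 and 0.351). In their brightest probe sets the ligand gene Cd80 gave -0.22 and the receptor gene Cd40 gave 0.16 (limma adjusted p = 0.283 and 0.417).

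Cartilage and bone markers gave the other side of the sample. Chondrocyte markers had a median of 0.05 over 18 probe sets (-0.05 to 0.17 with single arrays left out), and Col2a1, the main collagen of cartilage, read 14.92, 15.05, 14.82 and 14.95 in knockout mice, against 14.86, 15.05, 14.94 and 14.92 in wild-type mice (limma adjusted p = 0.982). Bone cell markers had a median of 0.37 over 13 probe sets with 8 of unadjusted p under 0.05 higher in knockout and 0 called. Skeletal muscle markers had a median of -0.76 over 16 probe sets, and all 16 were lower in knockout with an unadjusted p under 0.05. In 8 of those 16 the groups did not overlap, against 9.42% of all probe sets. Erythroid markers had a median of 0.71 over 19, with 8 of unadjusted p under 0.05, all higher in knockout. Over all probe sets 9.53% were higher and 8.74% lower at that p level. With adjustment, 0 were called in each list. Without knockout 4, 11 of the 16 muscle probe sets were called lower, and 7 of the 19 erythroid and 3 of the 13 bone probe sets higher. In that fit 4.01% of all probe sets were called higher and 7.95% in either direction. The muscle median was -0.46 without knockout 2, and the erythroid median was 0.42 without wild type 3.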
